A study of Mus musculus with 6 samples.

Results

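The mitochondrial ribosomal protein genes were taken as the protein-coding genes whose mouse symbols start with Mrpl (large subunit) or Mrps (small subunit). There were 78 of them, 49 large and 29 small, among the 50686 genes of the count table. They were measured in lacrimal glands, the glands that secrete the watery part of tears, of 3 wild-type mice and 3 Eda-/- mice. All 6 mice were 13 weeks old and labelled as C57BL/6, and the mutant libraries carry the name Tabby. The mutated gene, Eda, codes for ectodysplasin A, a signalling ligand related to tumor necrosis factor that acts in the development of skin appendages and exocrine glands, and Tabby is the classical mouse mutant of that gene. The labels give neither the sex of the mice nor the relation of the controls to the mutants, and they name no tissue-specific or inducible allele, so that effects on development and on the adult gland are not separated. The 3 libraries of a group are described by the submitters as biological replicates.

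Mitochondria carry their own ribosome, which translates the few messages of mitochondrial DNA. Those messages encode core subunits of the respiratory chain and the ATP synthase. The ribosomal RNA comes from mitochondrial DNA, whereas every protein of the particle is encoded in the nucleus, made in the cytosol and imported. Many of these proteins descend from bacterial ribosomal proteins, and others were added in the mitochondrial line. Secretory cells of exocrine glands use mitochondrial ATP for protein synthesis, ion transport and exocytosis.

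Libraries held 11894395 to 15700899 counts, of which 8793 to 12793 fell on the 78 genes. Library measures also separated the groups: 24637 to 26240 genes had counts in wild-type and 21897 to 22416 in Eda-/- libraries, and the TMM scaling factors were 1.08 to 1.14 and 0.887 to 0.937, so their part in the results cannot be told apart from genotype. The wild-type libraries had 41, 48 and 42 counts of Eda itself, and the Eda-/- libraries 2, 0 and 0, as the labels state. The summed level of 10 lacrimal acinar markers was 37910 to 39879 CPM (counts relative to library size) in wild-type and 52380 to 54967 in Eda-/- glands, with 3 of the 10 genes higher and 2 lower by the test. Very abundant genes carried that sum: the highest mean level among the 10 was 32412 CPM, against a median of 92.7 CPM in wild-type. The log2 fold change was above 0 in 5 of the 10 and below 0 in 5. Wild-type 3 stood apart in the macrophage markers (177 CPM, against 89.7 and 97.0 in wild-type 1 and 2 and 41.2 to 50.6 in Eda-/-) while lymphocyte and plasma cell markers varied within both groups (31.7, 119 and 26.1 CPM in wild-type 1 to 3, and 257, 104 and 174 in Eda-/- 1 to 3). Macrophage, fibroblast, endothelial and myoepithelial sums were lower in all 3 Eda-/- libraries than in all 3 wild-type ones. Of the 10 macrophage markers 6 were lower by the test, beside 6.9% of all genes, and 3 to 8 with a library left out. Their median log2 fold change was -1.52, or -1.10 without wild-type 3. Duct sums overlapped, and adipocyte sums were low in both groups (1.18 to 1.75 against 3.74 to 4.78 CPM). Markers of brown fat, a tissue rich in mitochondria, summed to 0.499 to 0.642 CPM in wild-type and 0.281 to 1.05 in Eda-/- glands, skeletal muscle markers to at most 2.56 CPM, and salivary gland markers to at most 1.12 CPM with 2 of 5 genes at 0 in all libraries. Whole glands were sequenced, so fewer cells of a type and less RNA per cell cannot be told apart for any gene below, and the part of cell composition in the results was not tested.

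Of the 78 genes, 77 had enough counts for the test. Mrpl53 did not, with 1 count in a single Eda-/- library and 0 in the other 5, and 88% of its exon bases lie within Ccdc142os and Gm42688 on the same strand. Levels are given in CPM on library sizes scaled by the trimmed mean of M-values (TMM), which sets the bulk of genes equal between libraries. On that scale 9 members were higher in Eda-/- glands and 0 were lower (edgeR's quasi-likelihood test at 0.05 after Benjamini-Hochberg adjustment over 13178 genes), that is 11.7% of the tested members. Among all genes tested 6.21% were higher and 6.9% lower. The 9 were 7 of 48 large subunit genes (Mrpl10, Mrpl14, Mrpl15, Mrpl21, Mrpl38, Mrpl44 and Mrpl46; 14.6%) and 2 of 29 small subunit genes (Mrps7 and Mrps34; 6.90%). The small subunit share is close to the background. With a library left out, the large subunit count was 3 of 48 without Eda-/- 1 and 4 of 48 without wild-type 2 or Eda-/- 3. The small subunit count was 1 of 29 without wild-type 3 or Eda-/- 1. Of all genes 4.13 to 4.62% were higher in those fits. At an unadjusted p under 0.05, 22 members were higher and 0 lower, against 13.3% higher and 14.3% lower of all genes, and both DESeq2 and limma-voom also called 0 lower. DESeq2 called 4 of 77 members higher, against 4.16% of all genes higher and 5.27% lower, so that count is near the background.

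The shift was small and spread over most members. The median log2 fold change of the 77 was 0.16, with quartiles at 0.10 and 0.27 and a range from -0.20 to 0.82, and the median of all genes was 0.00 with quartiles at -0.22 and 0.16. Of the 77 values 66 (85.7%) lay above 0, against 50.5% of all genes. In 26 members all 3 Eda-/- libraries lay above all 3 wild-type libraries, in 2 (Mrpl41 and Mrpl48) all lay below, and in 49 the groups overlapped. Among all genes 15.9% lay wholly above and 16.2% wholly below. The members share libraries and scaling, so their counts are not independent of each other, and the list is described with no test of its own.

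**Figure D1:**
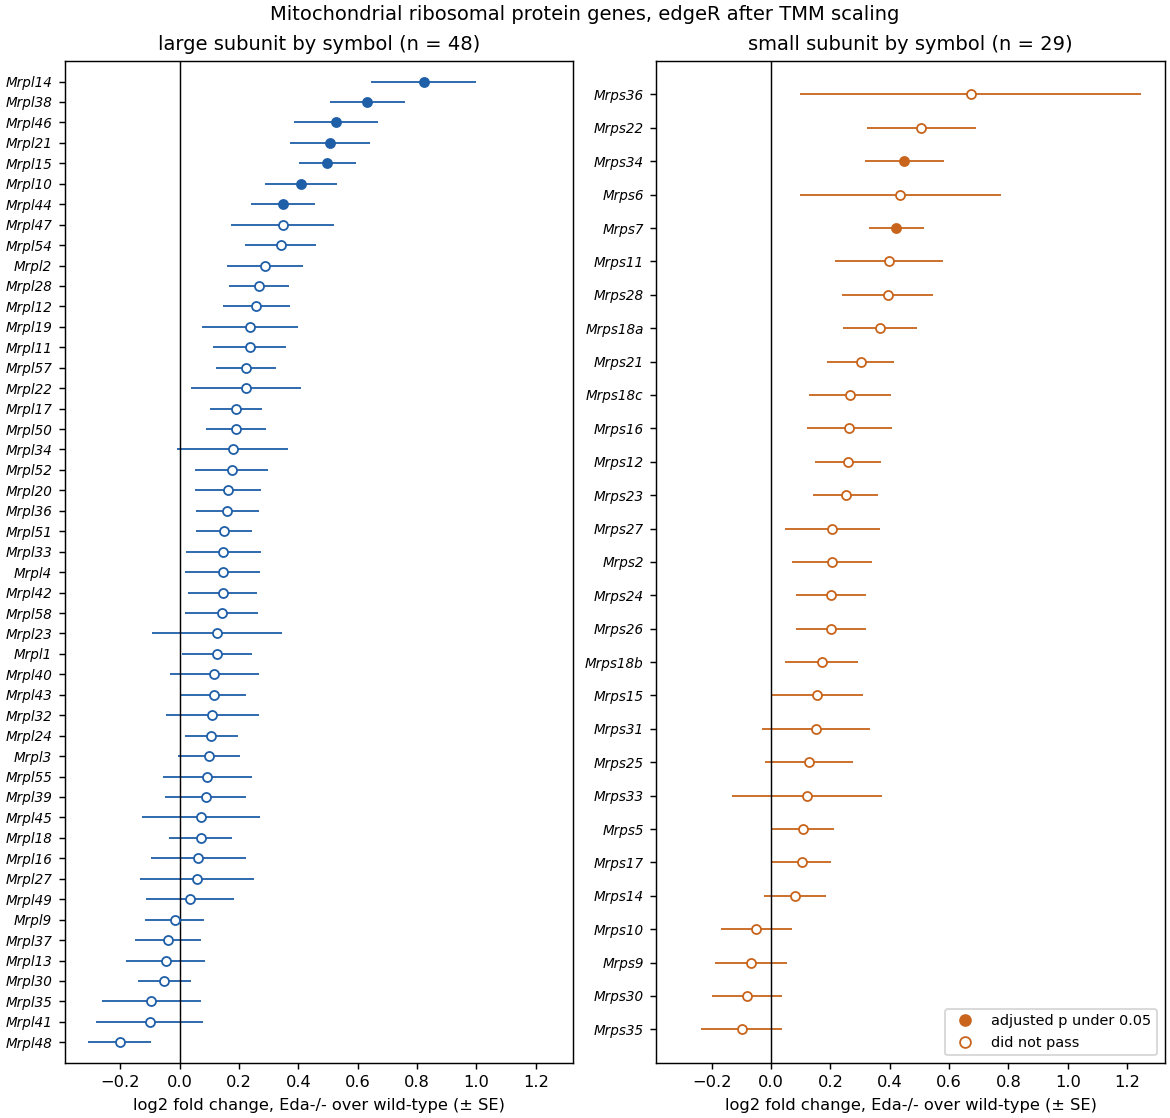
Log2 fold change of each tested member, Eda-/- over wild-type (x axis), with its standard error as a bar, for 48 large subunit genes (left) and 29 small subunit genes (right). Filled points passed the edgeR test at an adjusted p under 0.05, and all 9 of them lie to the right of 0 on the TMM scale, between 0.35 (Mrpl44) and 0.82 (Mrpl14).

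The direction depended on the scaling. When libraries were scaled to their totals instead, the median of all genes was -0.28, the member median was -0.12, 1 member was higher (Mrpl14) and 7 were lower (Mrpl9, Mrpl30, Mrpl37, Mrpl48, Mrps9, Mrps30 and Mrps35), beside 1.87% of all genes higher and 33.1% lower. As unscaled CPM, the 78 genes together took 812, 815 and 851 in wild-type libraries and 849, 739 and 743 in Eda-/- libraries, which overlap (826 ± 22.0 against 777 ± 62.2, mean ± SD, n = 3 each). The members stood 0.16 above the median of all genes on the log2 scale under both scalings. A change of scaling moves all genes nearly alike, so this gap could barely differ between them. Every rise given below is therefore relative to the bulk of genes, not to the total RNA of the gland.

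Among the large subunit members, Mrpl15, a counterpart of a bacterial ribosomal protein (chromosome 1, 4773206 to 4785739 in GRCm38), had the smallest p. It measured 15.5, 15.1 and 14.1 CPM in wild-type libraries 1 to 3 and 21.5, 22.6 and 19.2 in Eda-/- libraries 1 to 3. Each Eda-/- value was above each wild-type value, and means went from 14.9 ± 0.758 to 21.1 ± 1.74 CPM (SD, n = 3), a log2 fold change of 0.50 (SE 0.10, edgeR adjusted p = 0.00313). Mrpl38 encodes a mitochondria-specific protein of the central protuberance, the part of the large subunit that faces the head of the small subunit (chromosome 11, 116131817 to 116138868). Its wild-type values of 11.8, 11.8 and 11.4 CPM had an SD of 0.201 CPM, and its Eda-/- values were 21.7, 18.1 and 14.6. The 3 mutant libraries were all higher but spread more widely, with a log2 fold change of 0.63 (SE 0.13, adjusted p = 0.00434). Mrpl14, whose bacterial counterpart lies at the interface with the small subunit (chromosome 17, 45686322 to 45698495), had the largest log2 fold change of all members, 0.82 (SE 0.18, adjusted p = 0.00638). It rose from 4.18, 3.59 and 4.75 CPM to 9.08, 6.75 and 6.32 CPM, again without overlap, and Eda-/- 1 was the highest.

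Mrpl21, with a bacterial counterpart (chromosome 19, 3282901 to 3292837), measured 8.17, 6.82 and 7.77 CPM in wild-type and 11.8, 11.5 and 9.12 in Eda-/- glands (log2 fold change 0.51, SE 0.14, edgeR adjusted p = 0.0218). Mrpl46, a further mitochondria-specific protein of the central protuberance (chromosome 7, 78775236 to 78783531), went from 5.99, 6.00 and 4.81 to 8.29, 8.15 and 7.80 CPM (0.53, SE 0.14, adjusted p = 0.0228). Groups did not overlap for either gene, and wild-type 3 was the lowest library for Mrpl46. Mrpl44 carries an RNase III-like fold and is mutated in an inherited human cardiomyopathy (chromosome 1, 79776018 to 79781445). Its values were 10.4, 9.998 and 10.5 against 14.1, 12.2 and 13.1 CPM, a log2 fold change of 0.35 (SE 0.11, adjusted p = 0.0444), the smallest among the members that passed.

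Each of these 3 calls was lost with some single library left out. The adjusted p for Mrpl21 rose to 0.0877, 0.0823 and 0.0699 without wild-type 2, Eda-/- 1 and Eda-/- 2. For Mrpl46 it was 0.0743, 0.0633, 0.0556 and 0.0535 without wild-type 3, Eda-/- 1, Eda-/- 2 and Eda-/- 3. For Mrpl44 it was 0.0804, 0.123, 0.0706, 0.120 and 0.103 without wild-type 1, wild-type 2, wild-type 3, Eda-/- 1 and Eda-/- 3. Mrpl14, Mrpl15, Mrpl38 and Mrps7 passed edgeR with any of the 6 libraries left out, with adjusted p-values of at most 0.0386, 0.0165, 0.0222 and 0.0373. Those 4 were also the members that passed without Eda-/- 1, when 4.44% of all genes were higher, and those that DESeq2 called.

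The stalk of the large subunit recruits translation factors. Its 3 members all lay wholly above wild-type, as did 26 of the 77 members and 15.9% of all genes. Of the 3, 1 passed the edgeR test, beside 6.21% of all genes higher, and 0 passed DESeq2 or limma-voom. Mrpl10 forms the base that anchors the stalk (chromosome 11, 97041560 to 97049213). It measured 11.6, 13.3 and 13.3 CPM in wild-type and 17.8, 13.8 and 18.9 in Eda-/- glands. Eda-/- 2 lay only just above the wild-type libraries, and the log2 fold change was 0.41 (SE 0.12, edgeR adjusted p = 0.0359). Without wild-type 1, wild-type 2, Eda-/- 1 or Eda-/- 3 the adjusted p of Mrpl10 was 0.103, 0.0645, 0.108 and 0.162. Mrpl12, the flexible stalk protein, which has also been described as a partner of the mitochondrial RNA polymerase, had 13.4, 12.1 and 12.1 against 17.2, 14.2 and 13.5 CPM (0.26, adjusted p = 0.154). Mrpl11, at the stalk base beside the factor-binding site, had 8.17, 8.29 and 8.15 against 10.7, 8.90 and 9.36 CPM (0.24, adjusted p = 0.229).

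No member around the exit of the peptide tunnel passed the edgeR test (0 of 6, with 1 higher at an unadjusted p under 0.05 and a median of 0.16, and 0 by DESeq2 and by limma-voom). Mrpl45, which holds the ribosome to the inner membrane, had 5.42, 6.00 and 4.69 CPM in wild-type and 6.29, 3.75 and 6.78 in Eda-/- glands, which overlap (0.07, adjusted p = 0.856). Mrpl23, a protein at the tunnel exit, had the lowest level per kilobase among large subunit members, 0.530 FPKM (a level per exon length, wild-type mean over all exon bases), and a log2 fold change of 0.13 (adjusted p = 0.765). Mrpl18, which binds ribosomal 5S RNA in bacteria, had the highest, 11.8 FPKM, and 16.6, 17.6 and 15.3 against 19.5, 15.4 and 17.2 CPM (0.07, adjusted p = 0.723). Mrpl58, a peptidyl-tRNA hydrolase built into the subunit that can also free stalled ribosomes, had 8.85, 9.41 and 10.3 against 11.8, 10.03 and 9.67 CPM (0.14, adjusted p = 0.504). The groups overlapped for both genes.

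The 2 members with the lowest log2 fold changes were large subunit genes, and neither passed. Mrpl48, of the central protuberance, had 13.2, 11.8 and 12.4 CPM in wild-type and 11.2, 10.5 and 10.8 in Eda-/- glands (-0.20, SE 0.11, edgeR adjusted p = 0.238). Mrpl41 had 3.62, 3.47 and 3.79 against 3.32, 3.37 and 3.43 CPM (-0.10, SE 0.18, adjusted p = 0.769). All mutant values lay below all wild-type values in both.

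**Figure D2:**
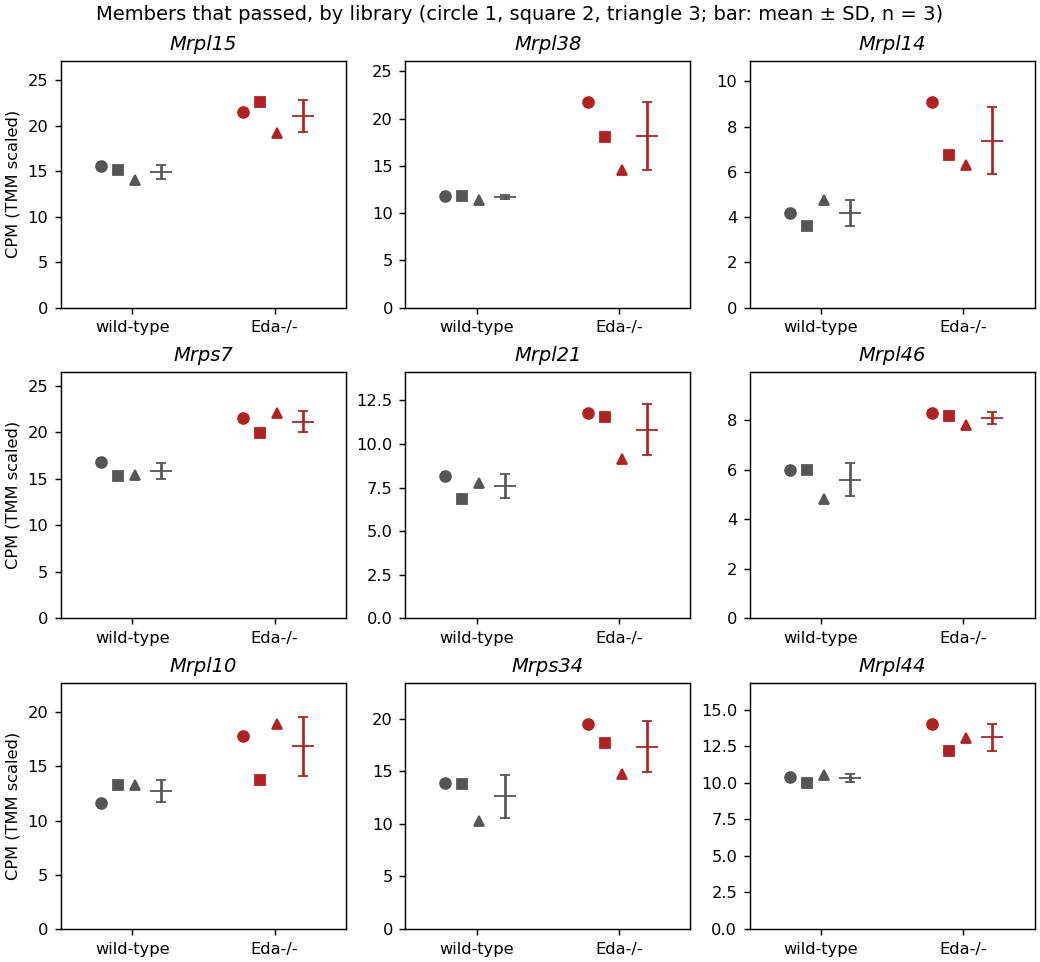
Level of the 9 members that passed, in CPM on TMM-scaled library sizes (y axis, from 0), in 3 wild-type (grey) and 3 Eda-/- libraries (red), with mean ± SD beside them. No Eda-/- library lies inside the wild-type range in any panel, and the gap is narrowest for Mrpl10 (13.8 in Eda-/- 2 against 13.3 CPM).

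In the small subunit, Mrps7, a head protein with a bacterial counterpart that helps nucleate assembly of the head (chromosome 11, 115603925 to 115608036), measured 16.8, 15.3 and 15.3 CPM in wild-type and 21.5, 19.9 and 22.1 in Eda-/- glands. Libraries of a group lay close together, and the log2 fold change was 0.42 (SE 0.09, edgeR adjusted p = 0.00739). Mrps34, a mitochondria-specific protein needed for a stable small subunit (chromosome 17, 24895116 to 24897502), had 13.9, 13.8 and 10.3 against 19.6, 17.7 and 14.7 CPM (0.45, SE 0.13, adjusted p = 0.039995). Its lowest mutant value, in Eda-/- 3, was above the highest wild-type value. The adjusted p of Mrps34 was 0.115, 0.153 and 0.114 without wild-type 3, Eda-/- 1 and Eda-/- 2. Mrps34 is uncertain as a gene-level count, since 77.8% of its exon bases lie within exons of Mapk8ip3 or Nme3, 37% on the same strand.

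Members with other roles in the small subunit did not pass. Mrps12, which in bacteria sets the accuracy of decoding, had 11.3, 12.2 and 13.5 CPM in wild-type and 16.2, 14.5 and 13.7 in Eda-/- glands (0.26, edgeR adjusted p = 0.139). Mrps5, near the channel where messenger RNA enters, had 16.02, 15.9 and 14.1 against 15.7, 18.7 and 15.4 CPM (0.11, adjusted p = 0.563). The groups did not overlap for the first, by a narrow gap, and overlapped for the second. Mrps21, with the highest level per kilobase in the small subunit (14.9 FPKM), had 10.97, 11.5 and 10.5 against 14.8, 11.9 and 14.0 CPM (0.30, adjusted p = 0.0915, or 0.0480 without Eda-/- 2). Dap3, a GTP-binding small subunit protein that lacks the Mrps name and is therefore no member, had 21.9 ± 0.668 and 22.0 ± 1.72 CPM (0.01, adjusted p = 0.979).

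The 3 Mrps18 paralogs descend from a single bacterial small subunit protein. Each had all mutant libraries above all wild-type ones, as did 15.9% of all genes, without passing. Mrps18a had 9.73, 11.6 and 10.1 CPM in wild-type and 15.6, 13.2 and 11.8 in Eda-/- glands (0.37, SE 0.13, edgeR adjusted p = 0.0664, or 0.0428 without Eda-/- 3). Mrps18b had 7.79, 8.41 and 8.09 against 9.08, 9.75 and 8.58 CPM (0.17, adjusted p = 0.400). Mrps18c had 5.67, 5.41 and 5.84 against 6.90, 6.65 and 6.78 CPM (0.27, adjusted p = 0.229). In structures of the mammalian particle Mrps18a sits in the large subunit, as does Mrps30, a protein unique to mitochondria, which had 10.8, 9.47 and 11.04 against 10.7, 9.37 and 9.51 CPM (-0.08, adjusted p = 0.721).

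Mrps36 stands apart from the other members in role and in precision. Despite its name the protein is now known as a component of the 2-oxoglutarate dehydrogenase complex. It had the lowest level among small subunit members, 0.440 FPKM, resting on 11, 6 and 10 counts (wild-type 1 to 3) and 20, 8 and 3 counts (Eda-/- 1 to 3). Its log2 fold change of 0.67 was the second highest of all members, but its SE was 0.57 and its edgeR adjusted p 0.499, and it was -0.23 without Eda-/- 1. No direction was detectable at this depth.

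Both subunits had medians above that of all genes on the TMM scale (both are below 0 with library totals). The median log2 fold change was 0.15 over 48 large subunit genes and 0.20 over 29 small subunit genes, a difference of -0.06 (large minus small). Summed large subunit levels were 483, 484 and 481 CPM in wild-type and 578, 528 and 538 CPM in Eda-/- glands (482.6 ± 1.56 and 548.1 ± 26.7, a ratio of 1.14). Summed small subunit levels were 272, 268 and 266 against 329, 296 and 301 CPM (269 ± 2.87 and 309 ± 17.8, a ratio of 1.15). Every mutant library was above every wild-type one in both sums, and the mutant libraries spread more. The ratio of the large to the small sum was 1.78, 1.80 and 1.81 in wild-type and 1.76, 1.78 and 1.79 in Eda-/- libraries, which overlap.

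Eda-/- 1 had the largest shift in each subunit. Its mean log2 difference from the wild-type mean was 0.26 over large and 0.34 over small subunit members, against 0.11 and 0.14 in Eda-/- 2 and 0.15 and 0.15 in Eda-/- 3. Wild-type libraries stayed between -0.02 and 0.02. Without Eda-/- 1 the medians were 0.12 and 0.14, their difference was -0.01, and 62 of 77 members lay above 0. Without Eda-/- 3 the difference of the medians was -0.10, so its size was set by single libraries. Its sign did not change with any library left out, but the groups overlapped by library. The mean log2 difference of large minus small members was -0.021, 0.021 and -0.0002 in wild-type 1 to 3. In Eda-/- 1 to 3 it was -0.080, -0.021 and 0.002.

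The members were also split by the origin of the protein. Of 48 with a bacterial counterpart 5 were higher (10.4%, median 0.17), and of 29 without a counterpart 4 were higher (13.8%, median 0.15), beside 6.21% of all genes. With a counterpart the count was 3 without wild-type 2 or Eda-/- 1. Without a counterpart it was 1 without wild-type 3 or Eda-/- 1, 2 without Eda-/- 2 or Eda-/- 3, and 1 by DESeq2. Of 13 members whose human counterparts are mutated in combined oxidative phosphorylation deficiency, 3 were higher (Mrpl44, Mrps7 and Mrps34). That count fell to 1 of 13 without wild-type 3 or without Eda-/- 1, and to 1 by DESeq2 and by limma-voom. All 13 had values above 0, as did 85.7% of the 77 tested members, and the median was 0.26. With a trend on GC content and length removed from each library that median was 0.17, beside 0.15 over all tested members. Among 5 subunits that lack the Mrp name, Aurkaip1 rose from 16.6 ± 1.52 to 21.4 ± 1.95 CPM (0.37, SE 0.10, edgeR adjusted p = 0.0260) and Chchd1 from 6.60 ± 0.171 to 8.86 ± 0.788 CPM (0.42, SE 0.13, adjusted p = 0.0450), both small subunit proteins. Ptcd3 and Gadd45gip1 had log2 fold changes of -0.03 and -0.01. With single libraries left out, 0 or 1 of these 5 passed.

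**Figure D3:**
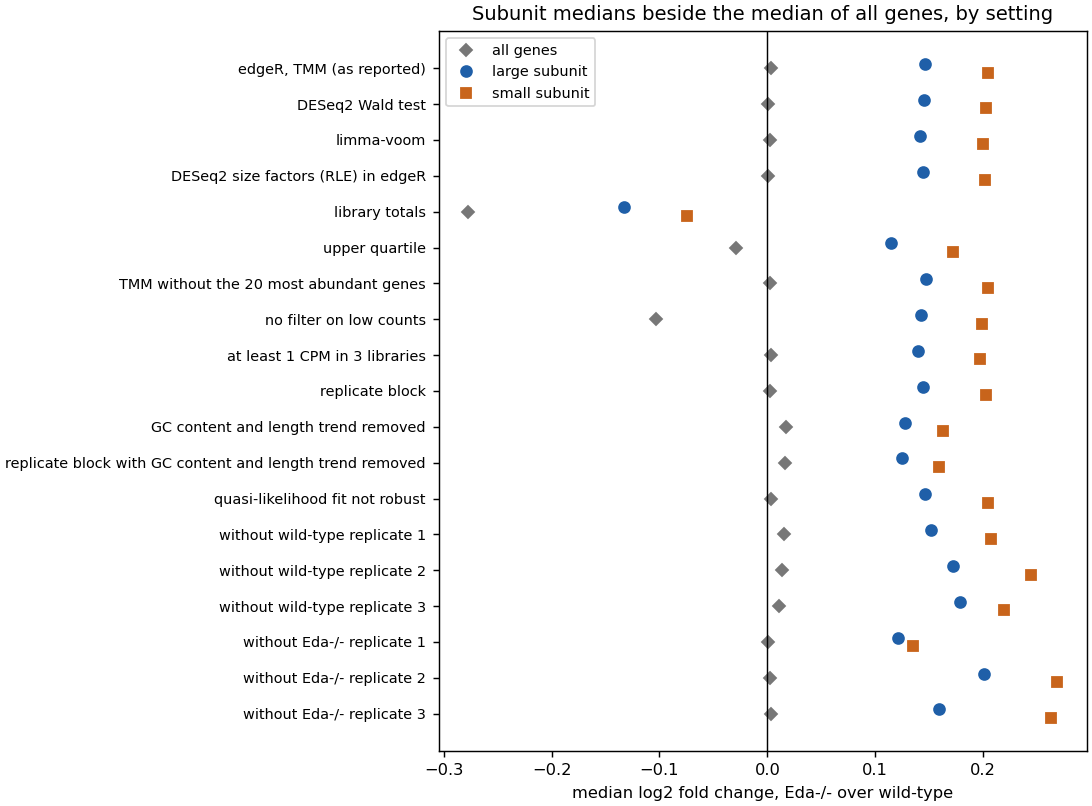
Median log2 fold change, Eda-/- over wild-type (x axis), of 48 large subunit genes (circles), 29 small subunit genes (squares) and all genes tested (diamonds) under each processing setting (y axis). Both subunit medians lie to the right of the all-gene median in every setting, and with library totals all 3 are below 0 (-0.13, -0.07 and -0.28). A change of scaling alone moves all genes nearly alike, so those settings can barely alter the gap.

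GC-rich and short members had the higher log2 fold changes. Across the 77 members Spearman's rho of the fold change was 0.49 with GC content, -0.39 with exon length and -0.02 with mean level. Across all genes the values were 0.09, -0.10 and 0.25. These are correlations across genes of the same 6 libraries, which are not independent replicates. Below 45% GC, 1 of 20 members was higher (Mrpl15, median of the 20 at 0.12), and from 45 to 50% 0 of 22 were (0.14). From 50 to 55% GC 4 of 20 were higher (0.17), and at 55% and above 4 of 15 (0.29). The shares of all genes called higher in those ranges were 4.32, 6.01, 7.54 and 7.65%. With a trend on GC content and length removed from each library, 6 of 77 members were higher (Mrpl14, Mrpl15, Mrpl21, Mrpl38, Mrps7 and Mrps18a) and 0 lower. In that fit 7.72% of all genes were higher and 7.04% lower, so the count of higher members is near the background. The member median was 0.15, against 0.02 over all genes.

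**Figure D4:**
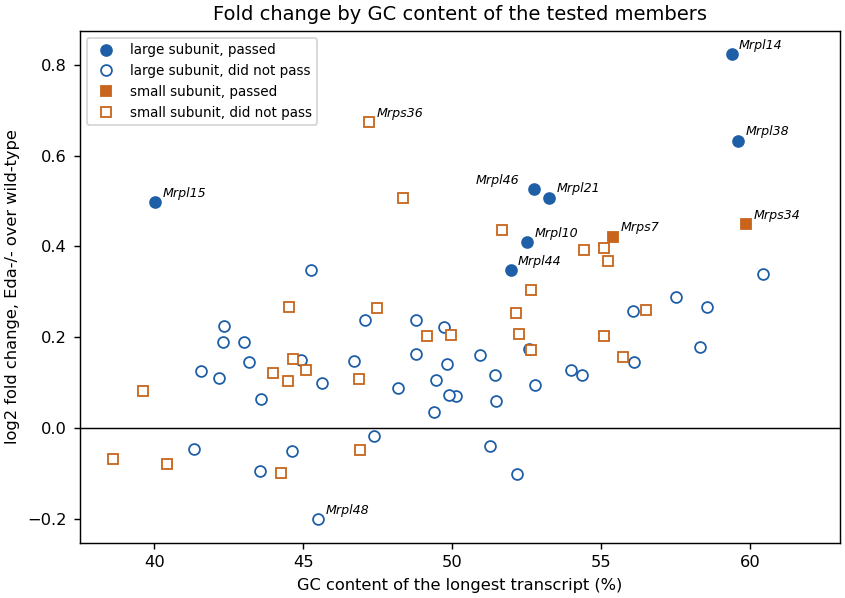
Log2 fold change, Eda-/- over wild-type (y axis), against GC content of the longest transcript in % (x axis) for the 77 tested members, with large subunit genes as circles, small subunit genes as squares and members that passed filled. Of the 9 that passed, 8 lie above 50% GC, and Mrpl15 lies at 40.0%.

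Shared exon sequence limits some of the counts. Of the 9 members that passed, Mrpl15 and Mrpl38 share no exon base with another gene, Mrps34 shares 77.8%, and the other 6 share 5.82 to 14.1% with genes on the opposite strand. Mrpl46 is one of these, overlapping Mrps11. Of the 37 members that share no exon base and few sequence words with other genes, 2 were higher (Mrpl15 and Mrpl38), a share no larger than the 6.21% of all genes, and their medians were 0.16 (23 large) and 0.18 (14 small). Of the 9, 3 lie near genes that changed by at least 2-fold: within 500 kb these were 3 of 27 tested neighbours for Mrpl38, 4 of 39 for Mrps34 and 1 of 32 for Mrps7. There were 0 such neighbours for the other 6. Members that did not pass varied too, with 6 of 34 for Mrps21, 3 of 8 for Mrpl16 and 0 of 32 for Mrpl11. The share of all tested genes that changed by this much is not given here, so no excess of such neighbours can be read from these counts. The part of genomic position in the results was not tested.

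Promoters of ribosomal protein genes of the mitochondrion are known for sites of NRF1 and of ETS factors such as GABP, and several hold sites of YY1. Sequences of 300 bases, 250 before and 50 from the annotated start onward, were available from RefSeq (GRCm38.p6) for 69 of the 78 members in 75 windows, and for 6 of the 9 that passed. The 4 shown here were picked because they belong to members that passed and show an NRF1 match, an ETS match and none of the motifs searched. Capitals mark the match, and sequences run 5′ to 3′.

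Mrpl14, chr17:45686099-45686398, plus strand: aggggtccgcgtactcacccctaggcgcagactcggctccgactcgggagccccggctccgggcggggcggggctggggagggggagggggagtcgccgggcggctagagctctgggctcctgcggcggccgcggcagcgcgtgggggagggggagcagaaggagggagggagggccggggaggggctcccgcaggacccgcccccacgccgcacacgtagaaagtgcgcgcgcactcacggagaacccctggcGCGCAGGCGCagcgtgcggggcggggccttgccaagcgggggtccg

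Mrpl44, chr1:79775768-79776067, plus strand: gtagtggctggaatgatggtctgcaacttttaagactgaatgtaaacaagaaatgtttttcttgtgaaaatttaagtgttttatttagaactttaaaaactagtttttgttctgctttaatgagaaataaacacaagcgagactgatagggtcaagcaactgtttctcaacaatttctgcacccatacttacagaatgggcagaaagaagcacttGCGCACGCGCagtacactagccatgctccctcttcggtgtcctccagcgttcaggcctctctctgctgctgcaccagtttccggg

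Mrpl21, chr19:3282792-3283091, plus strand: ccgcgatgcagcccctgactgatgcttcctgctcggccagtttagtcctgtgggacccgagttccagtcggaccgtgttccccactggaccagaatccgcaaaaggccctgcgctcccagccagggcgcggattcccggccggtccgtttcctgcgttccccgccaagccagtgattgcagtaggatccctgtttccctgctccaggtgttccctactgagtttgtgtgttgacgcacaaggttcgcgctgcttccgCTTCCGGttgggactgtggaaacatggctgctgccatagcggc

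Mrps7, chr11:115603890-115604189, plus strand: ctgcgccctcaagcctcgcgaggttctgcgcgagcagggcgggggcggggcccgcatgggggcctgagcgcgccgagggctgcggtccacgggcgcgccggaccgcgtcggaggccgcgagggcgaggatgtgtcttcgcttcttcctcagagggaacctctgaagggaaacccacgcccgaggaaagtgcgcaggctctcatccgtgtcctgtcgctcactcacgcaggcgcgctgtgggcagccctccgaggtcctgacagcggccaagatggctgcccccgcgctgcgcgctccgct

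Motifs were searched on both strands as exact letters. The NRF1 motif, GCGCA and GCGC with any base between them, was in 17.3% of member windows (13 of 75), against 9.95% of the windows of tested genes and 4.6% of all 32851 windows. In Mrpl14 and Mrpl44 it is the run in capitals above. The ETS motif CCGGAAG was in 34.7% (26 of 75), against 17.5% and 8.86%, and in Mrpl21 it lies on the opposite strand. The YY1 motif AANATGGCG was in 14.7% (11 of 75), against 5.02% and 2.38%. The motif of estrogen-related receptors, TCAAGGTCA, was in 0 of 75, against 0.255% and 0.423%, and the E-box CACGTG was in 9.33% (7 of 75), against 9.98% and 7.15%. Windows of the same gene were counted separately, and the 7 with an E-box include several overlapping windows of Mrpl2. Among the 6 windows of members that passed, 2 held the NRF1 motif, 1 the ETS motif and 0 the others. No matches of different motifs overlapped in member windows. Of the 69 matched members, 25 held none of these letters, Mrps7 among them. In the large subunit 20.8% of windows held the NRF1 motif and 31.2% the ETS motif, and in the small subunit 11.1% and 40.7%.

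Transcripts of the factors themselves did not pass the test. Of 14 tested nuclear regulators of mitochondrial biogenesis 0 passed the edgeR test in either direction, 0 had an unadjusted p under 0.05, and 0 passed DESeq2 or limma-voom, with a median log2 fold change of 0.01. Nrf1 had 14.7 ± 0.252 CPM in wild-type and 13.5 ± 0.389 in Eda-/- glands (-0.13, adjusted p = 0.438). Gabpa had a log2 fold change of -0.02, Yy1 of 0.02 and Esrra of -0.05. Ppargc1b, a coactivator, had 1.84 ± 0.296 against 2.48 ± 0.202 CPM (0.44, SE 0.24, adjusted p = 0.252).

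Genes that build the mitochondrial ribosome had 4 of 31 higher (12.9%) and 0 lower, beside 6.21% and 6.9% of all genes, with a median of 0.12. As for the ribosomal proteins, medians turned negative with library totals (-0.16 here, -0.17 for the translation factors and -0.09 for the respiratory chain genes below). Ngrn, which acts on the large ribosomal RNA, rose from 9.10, 9.998 and 8.47 to 15.3, 13.0 and 13.6 CPM (0.60, SE 0.11, edgeR adjusted p = 0.00267). Rpusd4, a pseudouridine synthase of the same RNA, rose from 5.92, 5.82 and 5.33 to 8.29, 8.997 and 8.58 CPM (0.60, SE 0.13, adjusted p = 0.00754). All mutant libraries were well above all wild-type ones for both. Dhx30, an RNA helicase of RNA granules (0.28, adjusted p = 0.0436), and Spg7, a subunit of the protease that matures Mrpl32 (0.32, adjusted p = 0.0488), also rose. The count was 2 or 3 with any library left out (2 without wild-type 1, 2 or 3, Eda-/- 1 or Eda-/- 3), and 2 by DESeq2 and by limma-voom, when 4.13 to 4.94% of all genes were higher with a library left out and 4.16% by DESeq2. A count of 2 of 31 is near those shares.

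Of 17 factors that run translation on this ribosome 3 were higher (17.6%) and 0 lower, beside 6.21% and 6.9% of all genes, with a median of 0.11. They were the elongation factors Tufm, from 14.1 ± 0.636 to 18.2 ± 2.70 CPM (0.37, edgeR adjusted p = 0.0408), Tsfm (0.44, adjusted p = 0.0495) and Gfm1 (0.37, adjusted p = 0.0324). None passed without wild-type 2, without wild-type 3 or without Eda-/- 1, or by DESeq2, 1 passed without Eda-/- 3, and 1 by limma-voom. Of 22 mitochondrial aminoacyl-tRNA synthetases and related enzymes, 0 passed edgeR, DESeq2 or limma-voom (4 higher and 1 lower at an unadjusted p under 0.05, median 0.11). Of 16 genes of mitochondrial DNA upkeep and transcription 0 passed any of the 3 tools (3 higher and 0 lower unadjusted, median 0.04), with Polrmt, the RNA polymerase, at 0.33 (adjusted p = 0.135) and Tfam, which packages mitochondrial DNA, at -0.07 (adjusted p = 0.781).

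The products of this ribosome and their nuclear partners were compared last. Of 76 nuclear-encoded respiratory chain genes 13 were higher (17.1%) and 1 was lower (1.32%), beside 6.21% and 6.9% of all genes, with a median of 0.19 and 72 of 76 values (94.7%) above 0, beside 50.5% of all genes. The 4 with the smallest p were Sdhb of complex II (0.55, edgeR adjusted p = 0.000594), Uqcrq of complex III (0.59, adjusted p = 0.00113), and Ndufc2 and Ndufb7 of complex I (-0.50 and 0.42, adjusted p = 0.0128 and 0.0262), and Ndufc2 was the gene that fell, a call lost without wild-type 1, Eda-/- 1 or Eda-/- 3. The count of higher genes was 3 without wild-type 2, 3 without Eda-/- 1, 7 without wild-type 1 and 7 without Eda-/- 3, and 3 by DESeq2. Of all genes 4.16, 4.44, 4.40 and 4.13% were higher in those 4 fits, in that order, and 4.16% by DESeq2, so a count of 3 of 76 does not exceed the background. The count was 9 without wild-type 3, 12 without Eda-/- 2 and 11 by limma-voom, when 4.62, 4.94 and 5.33% of all genes were higher. Of 13 proteins encoded by mitochondrial DNA 7 had enough counts, and 0 passed edgeR, DESeq2 or limma-voom (0 unadjusted, median 0.05). Messages of the nuclear respiratory chain genes thus shifted by about as much as those of the ribosomal proteins. The median of the 7 tested mitochondrially encoded messages was nearer to that of all genes. It does not cover those with too few counts, and the treatment of multiply mapped reads was not given. The difference between these lists was not tested.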

How the data were processed

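Total RNA of whole lacrimal glands was sequenced after ribosomal RNA removal in directional libraries, per the labels' protocols. The deposited values are raw counts per gene in a single table, with a column for each library. The submitters' processing notes name STAR, featureCounts, DESeq2, Trimmomatic and bcl2fastq, and the build GRCm38.p5. Their versions, the strand setting, the annotation and the treatment of multiply mapped reads were not given in the sources used here, so overlapping genes are uncertain.

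Gene identifiers were matched to GENCODE M21 (50462 of 50686), and 5 pseudogenes with Mrp symbols were left out. Counts of all genes were filtered with filterByExpr (minimum count 10), scaled by TMM and fitted with genotype alone in edgeR 4.0.16 (robust quasi-likelihood, R 4.3.3), two-sided, with Benjamini-Hochberg adjustment over 13178 genes. limma 3.58.1 (voom) and DESeq2 1.42.0 were alternatives, beside other scalings, filters, a GC content and length trend, a replicate block and leaving out each library. CPM are from TMM-scaled library sizes, and FPKM divide them by union exon length. The scripts were tested on simulated data. Replicate libraries differed by more than sampling noise (chi-square per degree of freedom 8.61 to 24.9), and the biological coefficient of variation was 0.103.

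The members, lists and tests were chosen with earlier results of these data known. Members described in full are those that passed, the 2 highest and 2 lowest log2 fold changes, the most and least abundant of each subunit per kilobase, and a list chosen by role. From other lists up to 4 members that passed are named by p.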

Additional observations from a re-analysis of the deposited data

How the results depend on the processing

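The 9 higher members of 77 became 4 with DESeq2, 1 with library totals and 5 with the replicate block and GC trend together. Of all genes 4.16, 1.87 and 6.87% were higher in those fits, in that order, so these counts are near the background. With limma-voom and with upper quartile scaling 6 were higher, beside 5.33 and 4.69% of all genes. With DESeq2 size factors or without the 20 most abundant genes 9 were higher, and 8 with a fit that was not robust. A filter of 1 CPM gave 9 of 76, and no filter 10 of 78. Of all genes 2.59 to 6.16% were higher in those 5 fits. Without exon overlap, an alternative chosen after seeing the data, 2 of 37 were higher, beside 6.21% of all genes. The higher members ranged from 4 to 9 with a library left out, 4 without Eda-/- 1, when 4.13 to 4.94% of all genes were higher (4.44% without Eda-/- 1). Members lower were 0, except 7 with library totals. The large subunit median was -0.13 and the small -0.075 with library totals, 0.12 to 0.20 and 0.14 to 0.27 with a library left out. Their difference was -0.10 to -0.014 with a library left out and -0.018 without exon overlap. Library totals lower all genes together (all-gene median -0.28).

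Among the members described by library and Dap3, those that changed sign had not passed the test. With library totals they were Mrpl11 at -0.042, Mrpl12 at -0.019, Mrpl18 at -0.21, Mrpl23 at -0.15, Mrpl45 at -0.21, Mrpl58 at -0.14, Mrps5 at -0.17, Mrps12 at -0.021, Mrps18b at -0.11, Mrps18c at -0.015 and Dap3 at -0.28. With the GC and length trend removed Mrpl18 was at -0.044 and Mrps30 at 0.010. Adding the replicate block to that trend gave -0.045 for Mrpl18, -0.000428 for Mrpl45 and 0.0074 for Mrps30. Dap3 was at -0.026 with upper quartile scaling and at -0.000875 with a filter of 1 CPM. With a library left out Mrps36 ranged from -0.23 to 1.17, Mrpl18 from -0.014 to 0.15, Mrpl45 from -0.089 to 0.29 and Dap3 from -0.044 to 0.067. The cause was not tested.

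Libraries share replicate numbers, but same-numbered libraries did not deviate together (correlations of -0.04, 0.02 and -0.09), so the numbers were not taken as pairs. With the replicate block alone 8 members were higher and 0 lower, medians were 0.14 (large) and 0.20 (small), and their difference was -0.06. Genes with counts as few as those of Mrps36 and Mrpl53 are limited by depth.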
